A study of Spinacia oleracea with 12 samples.

Results

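The 98 spinach genes described here had more transcript at high nitrogen (N) than at low N in both leaf and root. They were chosen by their measured values in these same libraries. A gene entered if its mean FPKM (fragments scaled by gene length and library size, a level per length) was at least 1 in leaf and in root, and if every high N library lay above every low N library in each tissue. The genes that passed were ranked by the smaller of their leaf and root differences, high minus low N, of mean log2(FPKM + 1), and the top 100 were kept, less 2 of 7 genes named for removal. The other 5 of those 7 had overlapping libraries in at least 1 tissue and had not passed. Of 25495 genes in the table, 15344 had the required level. Among these, 1091 (7.11%) lay higher without overlap in leaf, 880 (5.74%) in root and 152 (0.991%) in both. These shares are the background of the selection, and nothing about N can be read from the fact that all 98 genes meet it. The last 3 genes inside the list had smaller differences of 0.470 (Spo11153), 0.461 (Spo16583) and 0.450 (Spo12371), and the first 3 outside had 0.449 (Spo01494), 0.446 (Spo05956) and 0.440 (Spo10169), so the boundary falls in a continuous range. The 152 depend on single libraries, and were 394 without high N root 3, 262 without low N root 3, 252 without low N root 1, 248 without low N leaf 3 and 246 without high N leaf 2. Without high N root 3 the rule kept 59 of the 98 genes.

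Plants take up nitrate with root transporters, reduce it and build it into glutamine and glutamate, from which the other amino acids are made. When amino acids are broken down, the amino group is removed and the carbon skeleton is oxidised in the mitochondrion. For the branched-chain amino acids leucine, isoleucine and valine, the steps run from a branched-chain aminotransferase through a keto acid dehydrogenase complex to acyl-CoA dehydrogenases, and the electrons pass to the electron transfer flavoprotein and on to ubiquinone. In Arabidopsis these genes, together with several that release sugars from cell walls and starch, are known as markers of sugar starvation and long darkness. Among the 98 genes, 8 fell by name in a list of branched-chain amino acid and lysine breakdown. Another list, of wall sugar release and conversion, held 9, and one of starch and sugar signalling held 4. Whether these genes follow sugar supply or darkness in spinach was not tested. Names are those of the best protein match that the study lists beside its Spo identifiers, and 72 of the 98 had a name while 26 had none. They were read from the study's lists of genes it called, and for Spo13997 from its text. A gene outside those lists could therefore have no name here. A name is a match to a protein of another species, and the function in spinach was not tested.

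The libraries came from the cultivar 'Banjo', grown for 6 weeks in Turface medium with an N-free Hoagland's solution to which calcium nitrate was added. High N was 200 ppm and low N 50 ppm, with calcium chloride making up the calcium at low N, and the 4 groups (high N leaf, low N leaf, high N root, low N root) had 3 independent plants each. Some tissue and treatment entries of the sample records go against the library names, and the libraries were grouped by name. Each library held 15627994 to 18608172 fragments on genes. The sum of 6 chlorophyll-binding and photosystem genes was 14600.2 to 21827 FPKM in the leaf libraries and 3.58 to 11.9 FPKM in the root libraries, as their names say. The sum of 3 genes matching high-affinity nitrate transporters was 171 to 279.97 FPKM in low N root, and 3.06, 0.864 and 103 FPKM in high N root 1, 2 and 3. High N root 3 thus stood apart from the other high N root libraries, toward low N. In leaf the same sum was at most 0.274 FPKM. In tissue samples a lower level may mean fewer cells of a type or less RNA per cell, and these cannot be told apart.

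Over the 98 genes, the high minus low N difference of mean log2(FPKM + 1) ranged from 0.47 to 3.90 in leaf with a median of 1.19, and from 0.45 to 2.77 in root with a median of 0.96. Over all 15344 genes at this level the medians were -0.04 in both tissues. Among the 98, 61 differed by at least 1 in leaf, 45 in root and 39 in both. The leaf difference was the larger for 71 genes and the root difference for 27. Leaving out high N leaf 1 brought the 71 to 52, and 46 genes then had the larger difference in root. The gap between the groups was often small: the lowest high N library exceeded the highest low N library by a median factor of 1.38 in leaf and 1.20 in root.

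**Figure D1:**
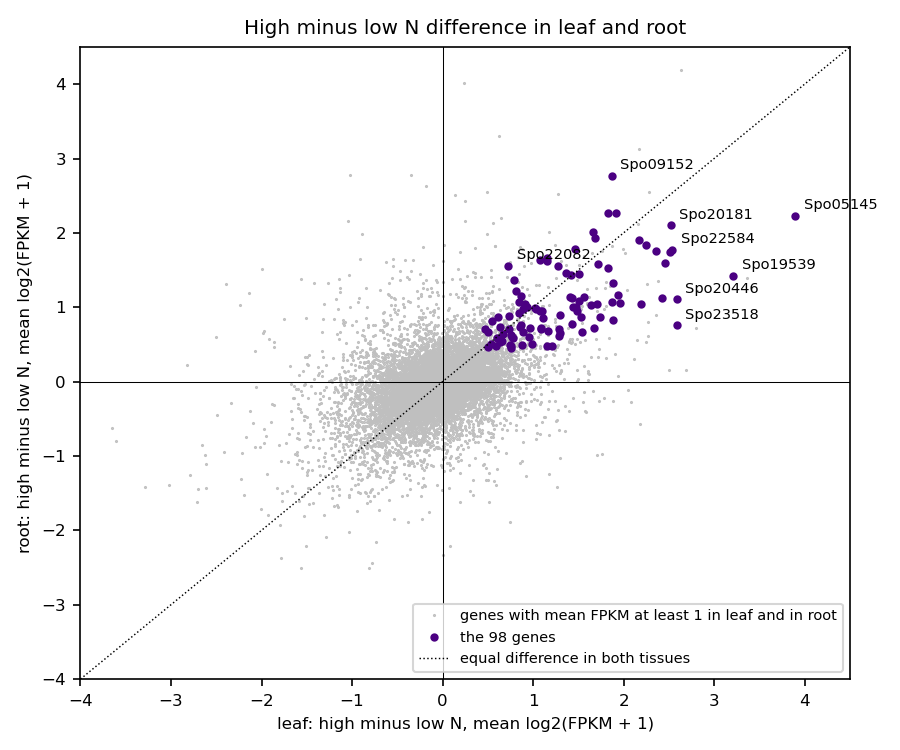
Each point is a gene, with the high minus low N difference of mean log2(FPKM + 1) in leaf on the x axis and in root on the y axis, for 15344 genes in grey and the 98 selected genes in purple. The 98 genes sit at 0.45 or above on both axes because the selection requires it, and 71 of them lie below the line of equal differences.

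By limma on log2(FPKM + 1), 92 of the 98 genes had p below 0.05 in leaf, where 4.72% of all tested genes were higher at high N at that threshold. In root 89 did, where the share of all tested genes was 4.63%. The rule used these contrasts, so the counts restate the selection. None of the 98 had an adjusted p below 0.05 in either tissue, with a lowest value of 0.106 in leaf and 0.123 in root by limma. With voom on fragments worked back from the FPKM values, 2 did in leaf and 0 in root. Leaving out high N root 2 brought the root count at p below 0.05 from 89 to 59, and leaving out low N root 2 brought it to 60.

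The 98 genes did not respond to the same degree in every library. In root, high N root 2 held the highest value for 84 of the 98 genes and low N root 2 the lowest for 70. Under the rule the highest value can fall only in 1 of the 3 high N libraries, and the lowest only in 1 of the 3 low N libraries. The same counts over all genes were not made. The median over the 98 genes of the log2 deviation from the tissue mean was 0.87 in high N root 2, 0.39 in high N root 1 and 0.08 in high N root 3, against -0.72 in low N root 2, -0.28 in low N root 1 and -0.32 in low N root 3. High N root 3, the library with the high sum of nitrate transporter genes, thus lay nearest to low N. In leaf the spread was smaller among the high N libraries, with 0.86, 0.40 and 0.57 for high N leaf 1 to 3, and the low N libraries lay at -0.37, -0.75 and -0.71. Over all genes at the required level, these medians stayed between -0.13 and 0.12 in every library. The 98 genes took 1.77 to 2.49% of the fragments in high N leaf, 0.614 to 0.805% in low N leaf, 1.42 to 2.48% in high N root and 0.699 to 0.976% in low N root. Without high N root 3 the median root difference of the 98 genes was 1.10, and without high N root 2 it was 0.74. The part of these libraries' state in the selection was not tested.

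**Figure D2:**
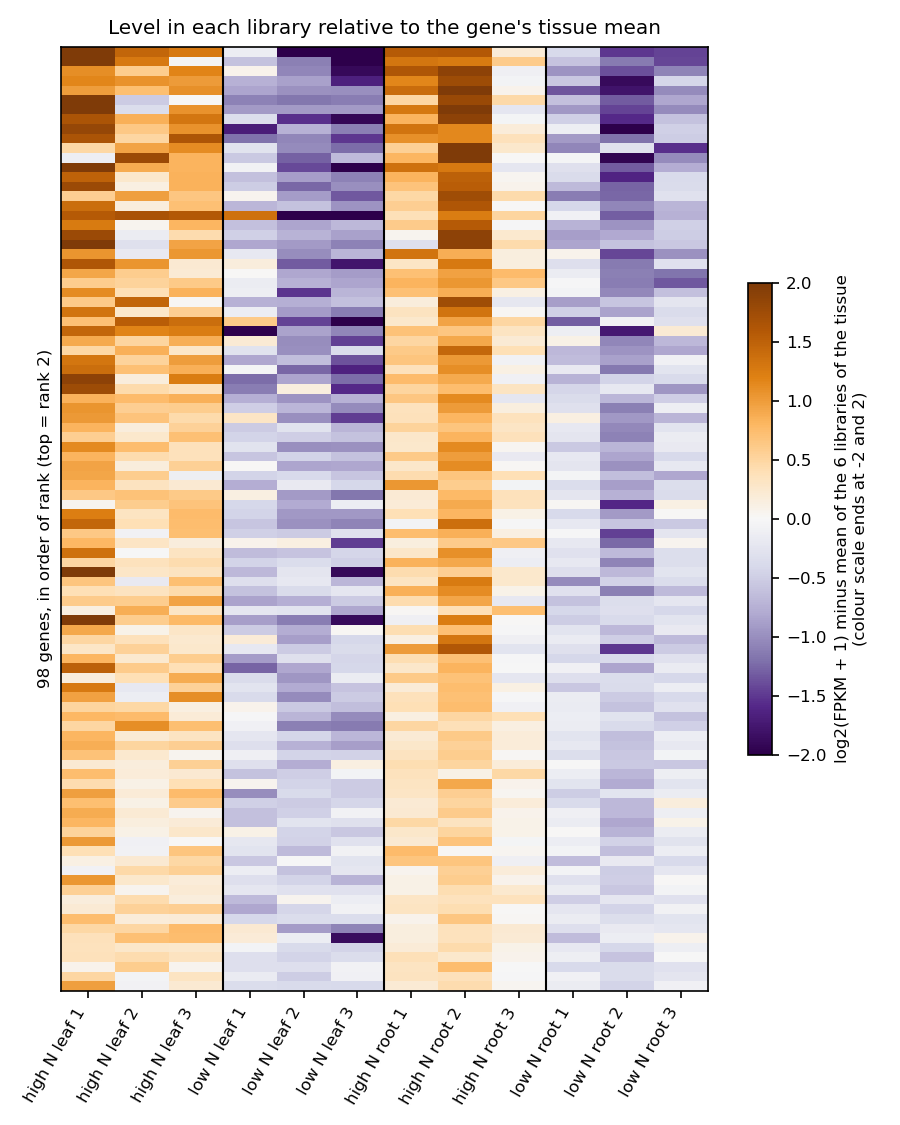
Rows are the 98 genes in order of rank, columns the 12 libraries, and the colour gives log2(FPKM + 1) minus the mean of the 6 libraries of that tissue, on a scale that ends at -2 and 2. High N root 2 and low N root 2 hold the extremes of most rows in root, while high N root 3 is pale with a median of 0.08.

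To read the same measure in libraries that took no part in the choice, the rule was run on libraries of 2 replicate numbers and the third was held out. With number 1 held out, 65 of the 100 genes so chosen were higher at high N in both tissues in the held-out libraries, where 28.8% of all genes at the level were. With number 2 held out it was 79 of 100 against 29.9%, and with number 3 held out 75 of 100 against 18.0%. The genes so chosen shared 41, 58 and 48 with the 98. Within a held-out number the median differences of the chosen genes were 0.78, 0.70 and 1.55 in leaf and 0.63, 1.79 and 0.39 in root. In the libraries used for the choice they were 1.63, 1.24 and 1.57 in leaf and 1.43, 0.82 and 1.60 in root, so the held-out difference was the smaller in all but the root libraries of number 2. At low N the leaf and root libraries of a number deviated together from their group means, so leaf and root are not treated as separate evidence.

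The gene of highest rank among the 98 was Spo05145, matching the glycerophosphodiester phosphodiesterase GDPD1, which in Arabidopsis releases glycerol 3-phosphate from glycerophosphodiesters during phosphate shortage. It had 165, 51.4 and 44.98 FPKM in the high N leaf libraries and 16.4, 2.91 and 0.775 FPKM in low N leaf. Its root libraries had 425, 432 and 163 FPKM at high N and 108, 49.8 and 51.8 FPKM at low N. Its difference of 3.90 in leaf was the highest of the 98 and that in root was 2.23. The low N leaf libraries themselves spread over a wide range, so the size of the leaf difference depends on which of them is read.

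An unnamed gene, Spo09152, had the largest root difference, 2.77, beside 1.87 in leaf. Its levels were 64.9, 160.2 and 25.1 FPKM in high N root and 8.81, 6.22 and 11.4 FPKM in low N root, and in leaf 453, 375 and 486 FPKM against 127, 114 and 114 FPKM. High N root 2 alone was over the other 2 high N root libraries by a wide margin. Spo06739, also unnamed, was a gene of root, with 233, 570.1 and 227 FPKM at high N and 107, 65.4 and 92.7 FPKM at low N. In leaf it had 41.3, 1.01 and 1.89 FPKM at high N and 0.3503, 0.277 and 0.3197 FPKM at low N, the latter from 4 to 5 fragments a library. Its leaf difference of 2.25 therefore rests on high N leaf 1.

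Spo14333 matches the WAT1-related protein At4g30420, a member of a family of membrane proteins named after a vacuolar auxin transporter of Arabidopsis. The paper places Spo14333 among putative amino acid transporters, as a UMAMIT protein, and reports it higher in leaf under high N from these same libraries. Of the 98 genes it alone is in the study's list of RT-qPCR primers, and the pair is shown because it marks the stretch of transcript that the study amplified.
Spo14333 forward: cctggttcctaggttgtgtatg
Spo14333 reverse: gagagataggtggtcagggtaa
Both primers are written 5′ to 3′ and are 22 bases long, and their place in the genome was not determined here. In root the gene had 29.1, 60.3 and 9.49 FPKM at high N and 5.44, 3.49 and 5.05 FPKM at low N, with high N root 3 the nearest to the low N values. In leaf it had 6.65, 0.471 and 2.97 FPKM at high N and 0 fragments in all 3 low N libraries. Against a floor of 3 fragments per library, its mean was at least 28.7-fold higher in high N leaf. The leaf difference of 1.83 on the log2(FPKM + 1) scale depends on the added 1 and was 4.51 with 0.1 added.

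The other unnamed genes among the 20 of highest rank were Spo12106, Spo06536 and Spo05149. Spo12106 had 170.4, 119 and 179.6 FPKM in high N leaf and 82.3, 37.2 and 20.4 FPKM in low N leaf, and 83.5, 101 and 24.7 FPKM in high N root and 13.2, 9.59 and 12.1 FPKM in low N root. Among its high N libraries, high N root 3 was the nearest to low N. For Spo06536 the differences were 1.66 in leaf and 2.01 in root, and for Spo05149 they were 2.46 and 1.60. Nothing can be said here of the function of the 26 unnamed genes.

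A first group was the breakdown of branched-chain amino acids and lysine. Of 13 genes with such names in the study's gene lists, 8 were among the 98, with differences of 1.11 to 2.54 in leaf and 0.85 to 1.78 in root. Of the 12 tested in leaf, 10 were higher at high N and 0 lower at p below 0.05 by limma, with a median difference of 1.51 against -0.04 over all tested genes. In root 11 of 13 were higher and 0 lower, with a median of 0.96 against -0.05. None passed an adjusted p of 0.05. For this and every group below, the share of all tested genes higher at p below 0.05 by limma was 4.72% in leaf and 4.63% in root. The share that was lower was not counted. The share of members among all genes of the study's lists was not counted either. The study drew its gene lists from its own calls for N on these same libraries. Here and for every group below, the direction of a list is therefore not independent evidence. The number of its genes called and its distance from the median of all tested genes are not either.

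Spo22584 matches isovaleryl-CoA dehydrogenase, which oxidises the leucine-derived acyl-CoA and hands its electrons to the electron transfer flavoprotein. In leaf it had 291, 166 and 227 FPKM at high N and 72.2, 30.4 and 23.7 FPKM at low N. The values in root were 149.6, 313 and 81.6 FPKM at high N and 60.2, 27.3 and 55 FPKM at low N. The differences were 2.54 in leaf and 1.78 in root, and at each N supply the root minus leaf difference did not pass the test, with 0.26 ± 0.46 (SE, limma, adjusted p = 0.643) at low N and -0.50 ± 0.47 (SE, limma, adjusted p = 0.373) at high N.

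Spo02348 matches subunit alpha of methylcrotonoyl-CoA carboxylase, the biotin enzyme of the next step of leucine breakdown. It had 135, 42.5 and 69.9 FPKM in high N leaf and 26.8, 15.6 and 19.03 FPKM in low N leaf. Root levels were 135, 247 and 87.9 FPKM at high N and 52.6, 34.3 and 64.8 FPKM at low N. No library of the low N groups reached any of the high N groups of its tissue, as the selection requires of all 98 genes.

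Upstream in the pathway, Spo21584 matches subunit alpha 2 of 2-oxoisovalerate dehydrogenase, the part of the branched-chain keto acid dehydrogenase complex that decarboxylates the keto acid. Its levels were low, 16.3, 2.09 and 6.39 FPKM in high N leaf and 1.16, 1.03 and 0.804 FPKM in low N leaf. In root it had 6.54, 33.7 and 11.8 FPKM at high N and 4.27, 5.19 and 5.45 FPKM at low N, with high N root 2 far above the rest. The lipoamide acyltransferase of the same complex, Spo21150, was also among the 98.

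At the start of the pathway, Spo13997, which the study's text calls BCAT-2, a branched-chain aminotransferase, ranked within the 20 highest. It had 94.9, 24.4 and 36.8 FPKM in high N leaf and 19.3, 16.1 and 14.5 FPKM in low N leaf. The root libraries had 8.696, 33.5 and 10.1 FPKM at high N and 4.05, 4.35 and 5.56 FPKM at low N. Unlike the other genes of the pathway named here it was higher in leaf than in root at low N, by a root minus leaf difference of -1.64 ± 0.20 (SE, limma, adjusted p = 2.86e-04).

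At the end of the pathway stand the 3 electron transfer components. Spo19070, the beta subunit of the electron transfer flavoprotein, had 96.6, 45.97 and 57.2 FPKM in high N leaf and 34.9, 20.2 and 17.1 FPKM in low N leaf, and 43.8, 87.7 and 35.1 FPKM in high N root and 24.4, 18.6 and 26.3 FPKM in low N root. Its partner subunit alpha (Spo18565), the ubiquinone oxidoreductase that receives the electrons (Spo25052) and methylmalonate-semialdehyde dehydrogenase of valine breakdown (Spo22055) were members too. Of the 8 genes of the list, 5 were higher in root than in leaf at low N and 1 at high N by limma at an adjusted p below 0.05, and none was higher in leaf. Of all tested genes, 46.1% were higher in root at low N and 50.5% at high N. With median-of-ratios scaling between libraries the counts of the list were 2 and 0 for root, where 24.0% and 28.6% of all tested genes were higher in root, and 1 gene of the list was higher in leaf at high N.

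**Figure D3:**
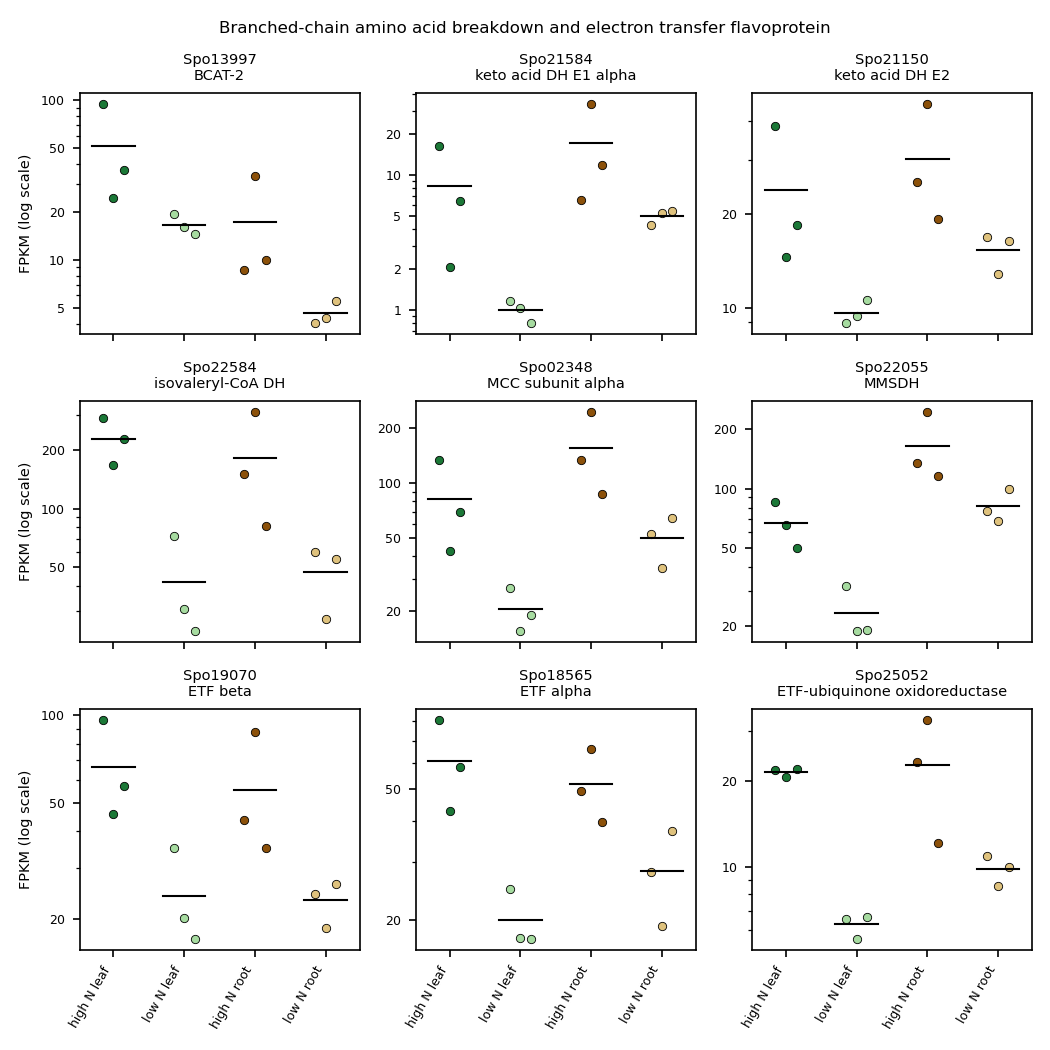
Points are the FPKM values (log axis, which differs between panels) of single libraries in the 4 groups and lines are group means, n = 3, for the 9 genes of branched-chain amino acid breakdown and electron transfer among the 98. In each panel the high N points lie above the low N points of the same tissue, as the selection requires, and for isovaleryl-CoA dehydrogenase (Spo22584) leaf and root cover similar levels.

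Among 6 genes named as aldehyde dehydrogenases, enzymes that oxidise aldehydes, 2 were among the 98. Spo22463 matches the succinate-semialdehyde dehydrogenase (acetylating) of Metallosphaera sedula. It had 124, 53.4 and 90.6 FPKM in high N leaf and 33.2, 28.4 and 31.5 FPKM in low N leaf. Its root libraries had 118, 234 and 76.8 FPKM at high N and 46.8, 39.6 and 55.9 FPKM at low N. Spo10066, matching family 7 member B4, which in plants acts in lysine breakdown and stress, differed by 1.10 in leaf and 0.94 in root. Over the list, 3 of 6 were higher and 2 lower in leaf at p below 0.05 by limma, and 3 higher and 0 lower in root.

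Of 20 genes in other amino acid metabolism, 4 were members and none of them was near the top of the ranking. Spo26834, matching the mitochondrial alanine-glyoxylate aminotransferase 2 homolog 1, had 114, 80.6 and 81.7 FPKM in high N leaf and 38.3, 33.1 and 26.2 FPKM in low N leaf. Root levels were higher throughout, 269, 426 and 235 FPKM at high N and 172, 98.2 and 195 FPKM at low N. Spo23245, a probable aminotransferase TAT2 of the tyrosine aminotransferase family, differed by 1.54 in leaf and 0.67 in root. Spo25675, matching chloroplast aspartate aminotransferase 3, differed by 0.89 and 0.67. Spo08186, matching the histidine biosynthesis enzyme hisIE and so a gene of synthesis, differed by 0.62 and 0.87. In the whole list 9 of 17 tested genes were higher and 3 lower in leaf, and 10 of 19 higher and 4 lower in root, at p below 0.05 by limma.

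Genes that release or convert wall sugars gave 9 of the 98, from a list of 21. Their differences ran from 0.77 to 3.21 in leaf with a median of 1.72, and from 0.51 to 1.75 in root with a median of 1.07. Of 20 tested in each tissue, 13 were higher and 5 lower in leaf and 9 higher and 4 lower in root at p below 0.05 by limma.

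Spo06262 matches beta-D-xylosidase 1, a wall enzyme that cuts xylose and arabinose from polysaccharides. It had 947, 419 and 568 FPKM in high N leaf and 81.96, 161 and 125 FPKM in low N leaf, and 197, 175 and 88.8 FPKM in high N root and 72.2, 18.6 and 56.1 FPKM in low N root. At high N it was higher in leaf than in root, with a root minus leaf difference of -2.06 ± 0.39 (SE, limma, adjusted p = 0.003). Spo20446, matching beta-galactosidase 1, which removes galactose from wall polymers, had 1149.8, 939 and 985 FPKM in high N leaf and 105, 229 and 201 FPKM in low N leaf. The values in root were 245, 237 and 190.0 FPKM at high N and 139, 44.7 and 175 FPKM at low N, where the lowest high N and the highest low N library lay close together.

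L-arabinokinase returns free arabinose to the sugar phosphate pool, and its match Spo18414 had 303, 129 and 193 FPKM in high N leaf and 70.1, 58.1 and 49.9 FPKM in low N leaf. Its root levels were 117, 189 and 67.5 FPKM at high N and 50.8, 20.6 and 49.9 FPKM at low N. Inositol oxygenase 1, here Spo19539, opens the ring of myo-inositol to make glucuronic acid. In leaf it had 58.8, 62.4 and 58.9 FPKM at high N, an even level, and 50.3, 2.47 and 0.605 FPKM at low N, with low N leaf 1 close to high N. In root it had 163, 296 and 177 FPKM at high N and 117, 49.8 and 73.7 FPKM at low N. It was one of the 3 genes whose leaf difference most exceeded the root difference, 3.21 against 1.43. A galactokinase, an aldose 1-epimerase, a second beta-D-xylosidase and a pair of UDP-glucose 4-epimerase genes complete the group.

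Starch and sugar signalling gave 4 members from a list of 24, with leaf differences of 1.08 to 2.51 and root differences of 0.95 to 1.91. Spo09720 matches beta-amylase 3, the chloroplast enzyme that releases maltose from starch. It had 260.4, 344 and 273 FPKM in high N leaf and 181, 92.9 and 68.8 FPKM in low N leaf, and 42.7, 104 and 41.6 FPKM in high N root and 13.4, 12.1 and 24.5 FPKM in low N root. It was the higher in leaf at both N supplies, with root minus leaf differences of -2.65 ± 0.40 (SE, limma, adjusted p = 9.21e-04) at low N and -2.33 ± 0.35 (SE, limma, adjusted p = 0.00103) at high N.

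A pair of genes carried the name of the stem-specific protein TSJT1, first described in tobacco. The list was set to include this name, which itself states no such function, and a part in starch or sugar signalling was not tested. Spo14130 was abundant, with 1627, 1521 and 1455 FPKM in high N leaf and 434, 397 and 228 FPKM in low N leaf. Its root libraries had 849, 1289 and 362 FPKM at high N and 256, 102 and 281 FPKM at low N, and high N root 3 was again the nearest to low N. The other gene, Spo01739, differed by 1.08 in leaf and 0.95 in root and was the higher in root, by 2.23 ± 0.20 (SE, limma, adjusted p = 5.88e-05) at low N. Spo16169 matches PV42a, a gamma-type subunit related to the SNF1 kinase, which senses energy supply. Its levels were low, 8.69, 3.33 and 8.56 FPKM in high N leaf and 0.342, 0.483 and 0.0891 FPKM in low N leaf, the lowest from 2 fragments, and 7.61, 8.05 and 4.26 FPKM in high N root and 1.16, 0.775 and 1.87 FPKM in low N root. In the whole list 13 of 21 tested genes were higher and 5 lower in leaf, and 9 of 23 higher and 3 lower in root, at p below 0.05 by limma.

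The mitochondrial pyruvate carrier 4, matched by Spo14161, brings pyruvate into the mitochondrion and was the single member of a list of 4 genes of pyruvate and the glyoxylate cycle. It had 97.1, 40.4 and 95.5 FPKM in high N leaf and 40.4, 22.4 and 27.9 FPKM in low N leaf. Root levels were 169.6, 124 and 75.2 FPKM at high N and 70.8, 24.5 and 33.9 FPKM at low N, so that the groups nearly met in both tissues. All 4 genes of the list were higher in leaf and 3 of 4 in root at p below 0.05 by limma.

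Chitinases and other defence proteins gave 6 of the 98, from a list of 20. Their differences were 0.76 to 2.52 in leaf and 0.63 to 2.1 in root. In root 13 of 17 tested genes of the list were higher and 1 lower at p below 0.05 by limma, and in leaf 7 of 19 were higher and 4 lower. Chitinases cut chitin, a polymer of fungal walls, and some act in plant development.

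Spo20181, matching endochitinase EP3, ranked next to Spo05145. The values in root were 1002, 968 and 614 FPKM at high N and 270.0, 185 and 149.5 FPKM at low N. In leaf its level was far lower, 38.5, 15.4 and 5.59 FPKM at high N and 3.49, 2.15 and 0.6001 FPKM at low N, a root minus leaf difference of 6.12 ± 0.40 (SE, limma, adjusted p = 1.06e-05) at low N. A second gene of that name, Spo13951, had the largest mean root minus leaf difference of all, 7.29 ± 0.40 (SE, limma, adjusted p = 4.45e-06) at low N and 6.24 ± 0.50 (SE, limma, adjusted p = 4.05e-05) at high N. How reads that fit both EP3 genes were assigned is not given in the sources used here, so their separate values are uncertain.

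Spo11439 matches the pathogenesis-related protein STH-21 of potato and had one of the 3 highest mean levels of the 98. It had 3421, 4023 and 3014 FPKM in high N root and 1799, 2108 and 1259 FPKM in low N root, against 256, 103 and 95.8 FPKM in high N leaf and 33.99, 83.7 and 24.4 FPKM in low N leaf. Spo17810 matches pathogenesis-related protein P2 of tomato and had 6.3, 9.005 and 10.3 FPKM in high N leaf and 3.32, 1.56 and 1.22 FPKM in low N leaf. In root it had 10.99, 33.3 and 8.76 FPKM at high N and 2.89, 5.69 and 1.75 FPKM at low N. Spo26436, a class V chitinase, differed by 1.08 in leaf and 1.63 in root. The remaining member was an acidic endochitinase, Spo16018.

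**Figure D4:**
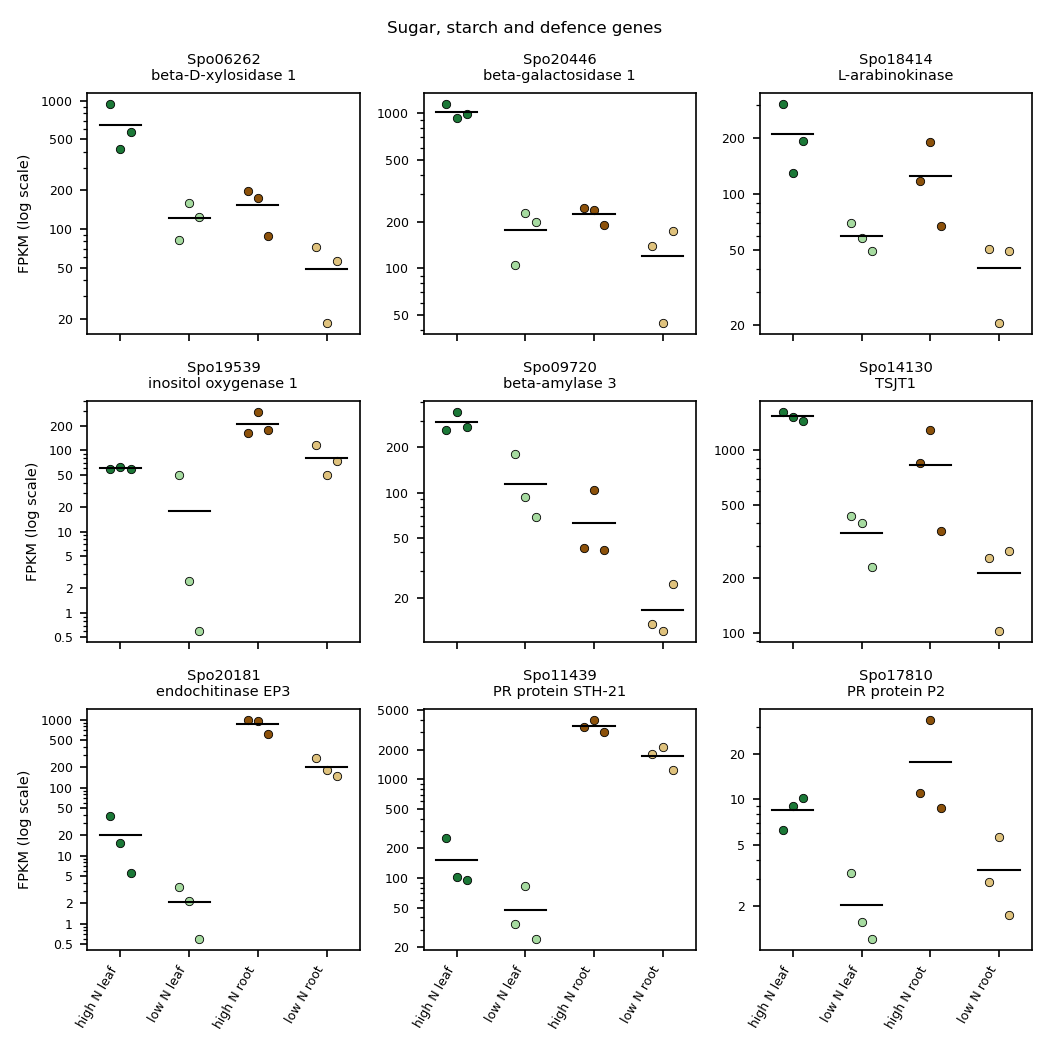
Points are the FPKM values (log axis, which differs between panels) of single libraries in the 4 groups. Lines are group means, n = 3, for 9 genes from the lists of sugar release, starch, sugar signalling and defence. Endochitinase EP3 (Spo20181) and STH-21 (Spo11439) stand far higher in root than in leaf, beta-amylase 3 (Spo09720) and beta-galactosidase 1 (Spo20446) higher in leaf at high N.

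Of 120 genes named as protein kinases or phosphatases, 7 were members. In the list as a whole 26 of 87 tested genes were higher and 27 lower in leaf, and 35 of 105 higher and 29 lower in root, at p below 0.05 by limma. Spo14297 and Spo14298 match the cysteine-rich receptor-like kinases 25 and 29 and had nearly the same levels. Spo14297 had 14.4, 17.2 and 14.8 FPKM in high N root and 7.45, 3.36 and 3.16 FPKM in low N root, and Spo14298 17.99, 21.1 and 15.7 FPKM and 9.54, 3.94 and 3.26 FPKM. In leaf both stayed at or below 3.02 FPKM at high N, and Spo14297 had 3 fragments in low N leaf 3. Reads shared by these 2 genes could not be told apart from reads of each, so they may not be separate observations. Spo09923, matching the kinase MHK, differed by 1.09 in leaf and 0.73 in root. Further members were a casein kinase 1-like protein, a lectin-domain receptor kinase and a protein phosphatase 2C.

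Protein turnover gave 3 members of 50. Spo10653 matches AMSH-like ubiquitin thioesterase 2, which trims ubiquitin chains, and had 127, 53.8 and 79.1 FPKM in high N leaf and 29.1, 31.4 and 24.3 FPKM in low N leaf. Its root libraries had 37.4, 78.2 and 24.99 FPKM at high N and 18.5, 11.4 and 14.9 FPKM at low N. The ubiquitin ligase match Spo17713 (MARCH2) differed by 0.86 in leaf and 1.15 in root, and the F-box protein match Spo02732 by 0.55 and 0.81. Spo02732 was also one of the 3 genes most in favour of leaf, with a root minus leaf difference of -3.68 ± 0.21 (SE, limma, adjusted p = 5.93e-06) at low N and -3.42 ± 0.24 (SE, limma, adjusted p = 2.13e-05) at high N. The whole list had 21 of 38 tested genes higher and 1 lower in leaf, and 25 of 47 higher and 6 lower in root, at p below 0.05 by limma.

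Smaller groups followed. The list of redox proteins and cytochrome P450s gave 3 of 60: the thioredoxin-like Spo08187 had differences of 0.79 in leaf and 1.37 in root, glutaredoxin-C11 (Spo09888) 0.87 and 0.76, and CXXS1 (Spo13583) 0.78 and 0.59. Membrane carriers gave 3 of 13, the pyruvate carrier already given, the metal pump match HMA2 (Spo11069, 0.96 and 0.72) and an ADP,ATP carrier match (Spo06106, 0.63 and 0.58). In the list of redox proteins and cytochrome P450s, lower genes outnumbered higher ones in both tissues, 14 against 11 in leaf and 21 against 17 in root at p below 0.05 by limma. Water and late embryogenesis proteins gave 2 of 11. Spo22411, a late embryogenesis abundant protein match with one of the 3 highest mean levels, had 1284, 1338 and 1269.8 FPKM in high N leaf, 903, 437 and 368 FPKM in low N leaf, 762, 1134 and 849 FPKM in high N root and 556, 393 and 513 FPKM in low N root. The aquaporin match SIP1-2 (Spo18500), of a family of membrane channels, differed by 1.30 in leaf and 0.66 in root. In the carrier list 6 of 9 tested genes were higher and 2 lower in leaf, and 8 of 13 higher and 1 lower in root, at p below 0.05 by limma. The water and late embryogenesis list had 6 of 9 higher and 2 lower in leaf, and 4 of 10 higher and 3 lower in root. Of 2 genes found by names of nucleotide metabolism 0 were members, with 2 higher in leaf and 1 in root. That search missed the member guanosine deaminase (Spo23518), given below with the genes in no list.

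From the list of 39 genes found by names of transcription factors, 1 was among the 98. The names searched did not catch the bZIP protein Spo01619, given below with the genes in no list. The 1 gene was Spo04720, matching cyclic dof factor 1, which in Arabidopsis represses flowering genes in the daily cycle. It was a gene of leaf, with 21.5, 21.4 and 27.8 FPKM at high N and 7.24, 7.77 and 9.29 FPKM at low N. The values in root were 1.84, 3.03 and 0.845 FPKM at high N and 0.391, 0.668 and 0.811 FPKM at low N, where the lowest high N value and the highest low N value almost met. In the list as a whole, 7 of 27 tested genes were higher and 10 lower in leaf, and 10 of 35 higher and 12 lower in root, at p below 0.05 by limma.

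Some members in no list had the highest level or the largest contrast between tissues. Spo08372, a match to the chloroplast chaperone dnaJ 11, had one of the 3 highest mean levels, with 2718, 1713 and 2221 FPKM in high N leaf and 1062, 1263 and 931 FPKM in low N leaf. Its root levels were 516, 569.8 and 446 FPKM at high N and 314, 175 and 299 FPKM at low N. Guanosine deaminase, matched by Spo23518, starts the breakdown of guanosine and so releases N from nucleosides. In leaf it had 307, 79.5 and 90.99 FPKM at high N and 27.97, 23.9 and 13.6 FPKM at low N, and in root 61.5, 158 and 66.3 FPKM and 46.2, 50.9 and 55.6 FPKM. Its leaf difference exceeded its root difference by more than in any other of the 98 genes, 2.59 against 0.76.

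Spo22082 matches OHP1, a one-helix protein of thylakoids related to the light-harvesting proteins. It was the gene of the 98 most in favour of leaf, with a root minus leaf difference of -4.72 ± 0.31 (SE, limma, adjusted p = 1.14e-05) at low N and -3.89 ± 0.43 (SE, limma, adjusted p = 2.25e-04) at high N. Its levels were 401, 478 and 394 FPKM in high N leaf and 286, 228 and 254 FPKM in low N leaf. In root it had 32.3, 49.4 and 12.9 FPKM at high N and 12.4, 4.88 and 10.5 FPKM at low N, and its root difference of 1.56 exceeded its leaf difference of 0.73. Spo09152 and Spo08187 were the other 2 genes whose root difference most exceeded the leaf difference. The 6 chlorophyll-binding and photosystem genes named above summed to 14600.2 to 15620 FPKM in high N leaf and 17391 to 21827 FPKM in low N leaf. In root they summed to 5.11, 10.7 and 11.9 FPKM at high N and 5.82, 3.58 and 5.52 FPKM at low N, and their part in the root difference of Spo22082 was not tested.

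Other named members in no list include a 4-hydroxyphenylpyruvate dioxygenase match of tyrosine breakdown (Spo02832), the 14-3-3 protein GF14 kappa (Spo15296), a zeatin O-glucosyltransferase match (Spo11153), the bZIP protein common plant regulatory factor 1 (Spo01619) and the mitochondrial CBSX3 (Spo02797). They were chosen for mention after their values were seen. Their leaf differences were 1.74, 0.95, 0.47, 0.73 and 0.67 in that order, and their root differences 0.87, 0.60, 0.70, 0.89 and 0.63.

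The rule did not use the difference between root and leaf, which was tested by limma within each N supply. It did ask for a mean of 1 FPKM or more in both tissues, so a gene of 1 tissue alone could not be a member. At low N, 33 of the 96 members tested had more transcript in root and 21 in leaf at an adjusted p below 0.05, where 46.1% and 15.2% of all tested genes did. At high N, 26 of 98 had more in root and 23 in leaf, where 50.5% and 17.1% of all tested genes did. Over the genes tested that met the level in both tissues, 42.7% were higher in root and 12.8% in leaf at low N, and 48.1% and 14.9% at high N. No test was made of the members' shares against these. On FPKM as deposited, the median root minus leaf difference over all tested genes was 0.55 at low N and 0.52 at high N, and over the members 0.34 and 0.06. With median-of-ratios scaling, which moved the median of all genes to 0.05 and 0.04, 21 members were higher in root and 30 in leaf at low N, where 24.0% and 21.7% of all genes were. At high N, 18 were then higher in root and 36 in leaf, where 28.6% and 26.4% of all genes were. Over the genes that met the level in both tissues, the shares with this scaling were 17.6% in root and 20.1% in leaf at low N, and 23.2% and 25.3% at high N. The majority among the called members therefore turned from root to leaf with the scaling.

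On FPKM as deposited, 24 members had more transcript in root and 19 in leaf at both N supplies. Another 17 were called at 1 supply alone and 38 at neither (2 of the 98 were not tested at low N). None was called in opposite directions. These counts were not made over all genes or with median-of-ratios scaling, so nothing particular to the members can be read from them. The genes most in favour of root were Spo13951, Spo06739 and Spo20181, with root minus leaf differences of 7.29, 6.06 and 6.12 at low N. Those most in favour of leaf were Spo22082, Spo02732 and the unnamed Spo21362, with -4.72, -3.68 and -3.00. The 98 genes thus combined genes called higher in either tissue with genes not called. A gene not called is not shown to have similar levels in both. Of the last 3 genes inside the list, Spo11153 was a gene of root, 2.84 ± 0.18 (SE, limma, adjusted p = 9.14e-06) at low N, while Spo16583 differed by 0.49 ± 0.18 (SE, limma, adjusted p = 0.044) on FPKM as deposited and by -0.0538 with median-of-ratios scaling.

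**Figure D5:**
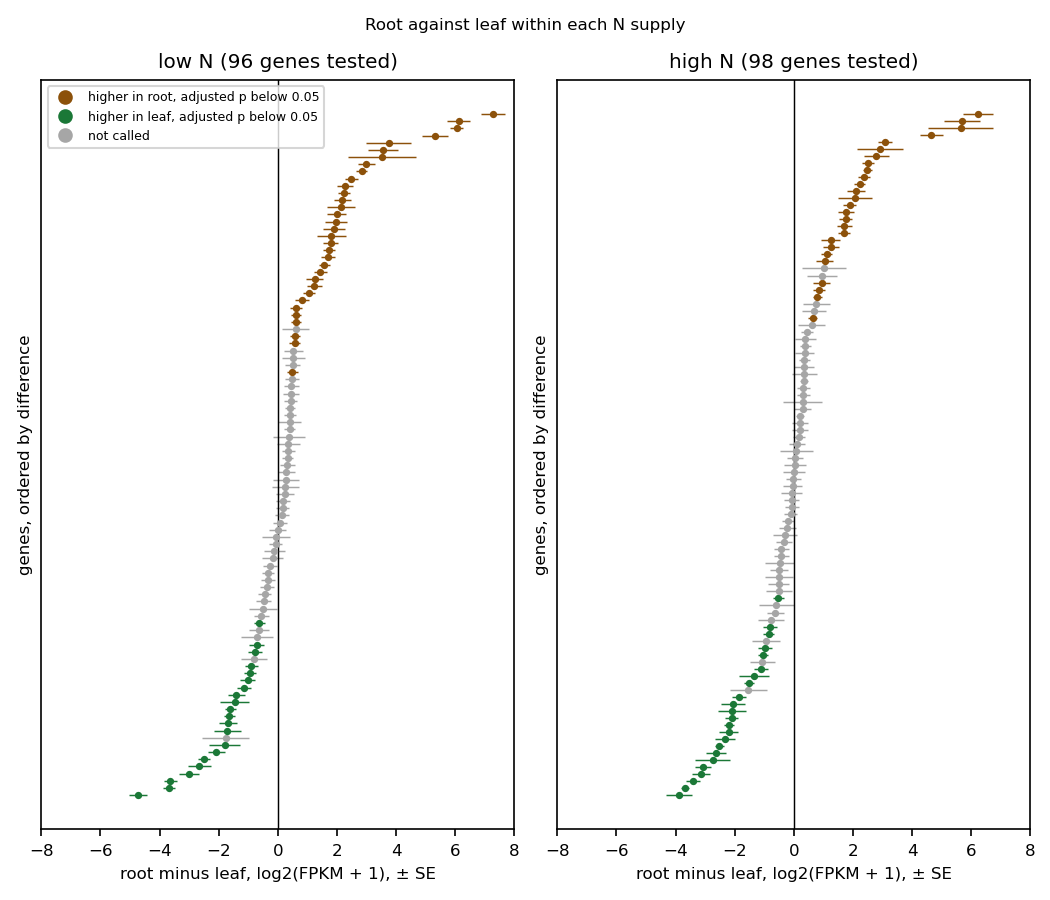
Each point is a member gene, ordered by its root minus leaf difference of log2(FPKM + 1) on the x axis with its standard error, at low N (left, 96 genes) and high N (right, 98 genes), coloured by the limma call at an adjusted p below 0.05. The differences run from -4.72 to 7.29 at low N and from -3.89 to 6.24 at high N, with many genes near 0.

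The members were expressed at higher levels than most genes, with a median of the mean FPKM of 37.6 against 13.8 for all 15344 genes at the required level. The added 1 in log2(FPKM + 1) shrinks differences at low levels, and with 0.1 added instead the rule kept 95 of the 98. The part of the ranking in the members' higher level was not tested. Their gene lengths, worked back from FPKM and fragments, had a median of 1443 bases against 1574. Of the 98, 14 had under 10 fragments in at least 1 library and 8 had 3 or fewer, all of those at low N. The rule puts the lowest level of each tissue at low N, so the selection nearly fixes that.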

How the data were processed

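RNA from 3 plants for each of 4 groups was sequenced, and the authors deposited FPKM for 25495 genes in 12 libraries, with no other per-sample columns. Per the paper's methods and the series record, pairs were mapped by TopHat (version 2.0.12, running Bowtie 2.2.3) and fragments on genes taken from HTSeq (version 0.6.1). The submitters' processing notes instead list fastp, HISAT2 2.1.0 and featureCounts, and which of these made the FPKM table is not given in the sources used here. Whether counting used strand was not given, so a gene and its antisense partner cannot be told apart. The genes and lists were chosen with earlier results of these data known.

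FPKM came out as whole multiples of 1 fragment, to within 0.001 fragments, at the smallest gene length that made all 12 libraries whole, so fragments and lengths were worked back for 23015 genes, and 2480 were at 0 throughout. The smallest number taken as detected was 3 fragments, 0.161 to 0.192 FPKM for a gene of 1 kb, which covers counting error only. Groups were compared on log2(FPKM + 1) by limma (version 3.58.1, R 4.3.3) with eBayes and a trend of variance on level. Genes entered with a mean FPKM of 1 or more over the 6 libraries of the comparison, and the Benjamini-Hochberg adjustment ran over all of these. Folds on this scale understate the change of low genes. The fit was tested on simulated data. With Python 3.11.15 and pandas 2.3.3 the rule, held-out counts and group counts were made. With 3 libraries in a group an exact permutation test could not give a p below 0.10, and none was used. The P values measure the spread between plants.

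Single genes named are the 20 of highest rank, at most 4 of highest rank in each list, the 3 most and 3 least in favour of root, the 3 of highest mean, the 3 on each side of the boundary, and the 3 with the largest difference in favour of leaf or root. Lists are protein names matched in the study's own gene lists. Alternatives were an added value of 0.1, no filter, a minimum mean FPKM of 5, scaling by median of ratios, a constant prior variance, a joint fit of the 4 groups, a replicate block, voom on fragments, and each library left out. Replicate numbers are shared between groups. Same-numbered root and leaf libraries at low N correlated in their deviations from the group means by 0.106 to 0.302, taken as pairing from the data, since the labels do not state it, and the block changed neither count there. The authors' tables of fold changes and p-values hold their own comparisons and were used only for protein names. None of the identifiers (0) matched the reference gene table used here, so no coordinates are given.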

Additional observations from a re-analysis of the deposited data

How the results depend on the processing

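With an added value of 0.1, with median-of-ratios scaling and with each library left out, the 53 named genes among the members kept a high minus low N difference above 0 in both tissues. For the added value and for a library left out the selection fixes this outcome, since every high N library lay above every low N library. An added value of 0.1 moved 6 of these differences by more than 1 SD, all of genes at low levels in that tissue. Under median-of-ratios scaling 236 genes instead of 152 lay higher without overlap in both tissues, and the rule kept 83 of the 98. Members called higher in root at low N fell from 33 to 21, where the share of all tested genes went from 46.1% to 24.0%. Members called higher in leaf at high N went from 23 to 36, where that share went from 17.1% to 26.4%. The root minus leaf difference of Spo16583 at low N turned from 0.49 to -0.0538.

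With each library left out, the rule kept 59 to 92 of the 98 genes, and 160 to 394 genes lay higher without overlap in both tissues. Members with p below 0.05 numbered 79 to 90 in leaf and 59 to 84 in root, the lowest without high N root 2. Members called higher in root numbered 24 to 34 at low N and 23 to 32 at high N, and those higher in leaf 15 to 22 and 20 to 29. In the same runs the shares of all tested genes moved too. They were 35.8 to 45.2% higher in root at low N and 42.9 to 50.3% at high N. For leaf they were 13.9 to 15.1% and 15.5 to 16.9%.

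A fit with the replicate block gave 33 members that were higher in root and 21 in leaf at low N, 26 and 24 at high N, and 92 and 75 had p below 0.05 in leaf and root. With the block, 47.2% of all tested genes were higher in root and 15.8% in leaf at low N, and 48.4% and 16.9% at high N. For root against leaf at high N, same-numbered libraries correlated by 0.133, 0.377 and 0.0893, but not each of them best with its own number. Whether they share plants is therefore not settled. Between high and low N, which are different plants, the lowest correlation was -0.0145 in leaf and -0.0242 in root, and there the libraries share only a number. Each low N root library correlated best with the low N leaf library of its own number, and the reverse was not computed. The held-out counts of 65, 79 and 75 ranged over 62 to 69, 75 to 80 and 72 to 77. Low values limit precision, and 8 of the 98 genes had 3 or fewer fragments in a library. Which of the libraries stands apart for a reason of the plant or of its handling was not tested.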

Other observations

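At the same level and by the same test of overlap, 307 genes lay lower at high N in both tissues, against 152 that lay higher, and 92 lay higher in 1 tissue and lower in the other. In leaf alone 1605 lay lower and 1091 higher, and in root 1397 and 880. These counts are given as values, and no difference between them was tested. The 98 genes described above were drawn from the smaller of the shared groups.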
